A study of Rattus norvegicus with 11 samples.

Results

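The unfolded protein response was examined through 4 genes, Hspa5 (ENSRNOG00000018294), Xbp1 (ENSRNOG00000010298), Atf4 (ENSRNOG00000017801) and Ddit3 (ENSRNOG00000006789). They were chosen by identifier, for their place in the response and not for their values, although earlier results of these data were known. All 4 were present among the 12037 genes of the deposited gene table and passed the filter on low counts. The files hold no symbols, so the names are those given with the identifiers when the genes were chosen.

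Polyadenylated RNA of the retina was sequenced from 11 female rats, with 1 library per animal. P23H rats carry a transgene for rhodopsin with a proline to histidine change, a form that misfolds and causes autosomal dominant retinitis pigmentosa. They were hemizygous animals of line 1 crossed to Long Evans (strain P23HxLE), so that the endogenous rhodopsin genes were also present. Of these, 5 received the solvent DMSO (P23H DMSO) and 4 received halofantrine, an antimalarial drug (P23H halofantrine). Both were given by injection into the vitreous of each eye, in a volume of 5 µL. The labels give halofantrine at 20 to 100 µM, without the concentration used for each library. The controls were 2 untreated wild-type rats of another cross (strain SDxLE). Genotype, cross, injection and the closing letter of the sample title (R in P23H, L in wild type) changed together between wild type and P23H, so that these cannot be told apart. Animal numbers did not overlap between halofantrine and DMSO, so that treatment cannot be told apart from anything that goes with those numbers. The age of the animals at RNA collection was not given in the sources used here.

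When misfolded protein builds up in the endoplasmic reticulum (ER), the membrane sensors IRE1, PERK and ATF6 start the unfolded protein response. IRE1 removes a short intron from Xbp1 mRNA, which then encodes an active transcription factor, and ATF6 is cut to release another. Both raise ER chaperones, such as Hspa5 (BiP, GRP78), which also holds the sensors inactive. PERK slows general translation while favouring translation of ATF4, a transcription factor that raises amino acid and stress genes, among them Ddit3 (CHOP), a factor tied to cell death when stress persists. Rods make rhodopsin in the ER in large amounts, so this response has long been studied in P23H models. Since XBP1 is set by splicing and ATF4 largely by translation, mRNA levels report only a part of their activity.

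The promoters of Hspa5 and Xbp1 are shown because both hold the ER stress response element (ERSE), through which ATF6 and XBP1 act. They were also chosen because the levels of these genes were correlated across P23H libraries, with the limits given below. Whether the element had a part in that correlation was not tested. The bases lie upstream of the annotated start site in RefSeq, build GRCr8, on the plus strand. The region is chr3:38452766-38453015 for Hspa5 and chr14:84604373-84604622 for Xbp1. Capitals mark matches to ERSE in both, and in Hspa5 also a match to the core of the unfolded protein response element (UPRE), the first run of capitals.

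Hspa5: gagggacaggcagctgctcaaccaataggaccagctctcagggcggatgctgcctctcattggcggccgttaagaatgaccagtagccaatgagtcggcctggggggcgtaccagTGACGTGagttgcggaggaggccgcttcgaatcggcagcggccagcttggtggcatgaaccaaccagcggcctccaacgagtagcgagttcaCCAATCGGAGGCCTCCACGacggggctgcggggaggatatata

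Xbp1: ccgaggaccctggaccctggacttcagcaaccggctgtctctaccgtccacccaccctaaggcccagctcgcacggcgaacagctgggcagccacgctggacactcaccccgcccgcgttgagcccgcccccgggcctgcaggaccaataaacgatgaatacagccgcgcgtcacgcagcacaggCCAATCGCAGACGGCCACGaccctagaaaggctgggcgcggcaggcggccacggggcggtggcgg

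Motifs were searched on both strands of the 250 bases before the start site, in all 33469 promoters of the table. ERSE (CCAAT, 9 bases of any kind, then CCACG) was found at bases -43 to -25 of Hspa5 and -65 to -47 of Xbp1, and in 0.0657% of all promoters (22 of 33469). The UPRE core (TGACGTG) was found in Hspa5 at bases -135 to -129, and in 1.54% of all promoters. A second form of the element, ERSE-II (ATTGG, 1 base of any kind, then CCACG), and the core of the C/EBP-ATF response element used by ATF4 (TGATG, 1 base of any kind, then AA) were found in none of the 4 promoters, and in 0.0418% and 3.4% of all. For Atf4 and Ddit3 no match to any of the 4 motifs lay in this window, which says only that these letters are not there.

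Levels are given as counts-per-million (CPM) scaled by TMM factors, which correct for differences in library composition. Gene table totals lay between 11685202 and 34198536 estimated counts per library. The lowest count, 278 for Ddit3 in P23H DMSO replicate 1, gave 23.2 CPM with an exact 95% Poisson interval of 20.6 to 26.1 CPM, which covers counting error only. For Xbp1, Atf4 and Ddit3 the intervals of the 2 wild-type libraries overlapped, so that their difference lay within counting error. For Hspa5 these intervals did not overlap (296 to 313 and 334 to 355 CPM). A pair of libraries stood apart from their groups and is therefore given separately throughout. Mean correlation of log2 CPM with the own group, across genes, was 0.829 for replicate 3 of P23H DMSO and 0.932 for replicate 1 of P23H halofantrine. The remaining 9 libraries had values of 0.933 to 0.990, so by this measure the halofantrine replicate lay just below the lowest of them. Of the counts in the transcript table, 3.41% and 3.79% lay outside the gene table in the pair that stood apart. In the remaining libraries this share was 1.58% to 1.90%. Markers of rods and of other retinal cells could not be matched to identifiers, so the labelled tissue was not checked here.

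**Figure D1:**
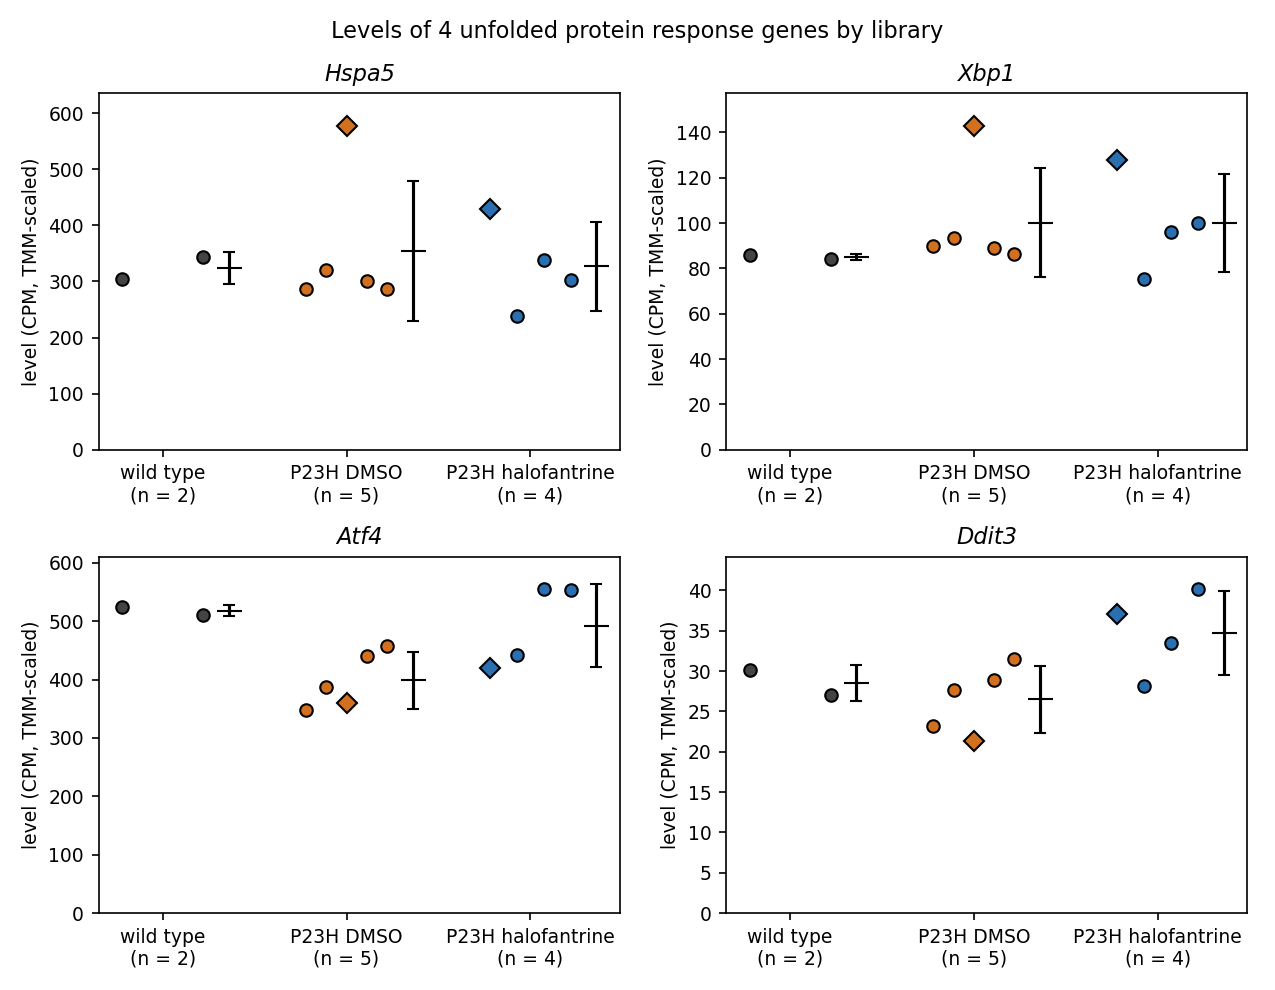
Level of each gene in CPM scaled by TMM factors (y axis, from 0) in each of the 11 libraries, by group, with the group mean and SD to the right of the points. Diamonds are P23H DMSO replicate 3 and P23H halofantrine replicate 1, which have the highest Hspa5 and Xbp1 levels of their groups, at 577 and 429 CPM for Hspa5, while all 5 P23H DMSO libraries lie below both wild-type libraries for Atf4.

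Whether the mutant retina showed a raised response was asked first, by comparing P23H DMSO with wild type. None of the 4 genes was significantly higher or lower in P23H DMSO, where 21.2% of all 12031 genes tested passed the threshold (adjusted p under 0.05, edgeR quasi-likelihood test). Hspa5 and Xbp1, the ER arm, were near the wild-type level in all but 1 P23H DMSO library. Atf4 was lower than in wild type in all 5 P23H DMSO libraries, with a wild-type mean 1.30-fold the DMSO level in the fit, and the groups overlapped for Ddit3. In whole retina, fewer cells of a type and less RNA per cell cannot be told apart.

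Hspa5, the main ER chaperone, was at 305 and 344 CPM in the wild-type libraries. In P23H DMSO replicates 1 to 5 it was at 286, 321, 577, 301 and 287 CPM. A single library, replicate 3, was above wild type, and 3 of the 5 were below both wild-type values. The means were 355 ± 125 CPM (SD, n = 5) and 324 ± 28.2 CPM (SD, n = 2). The fitted log2 fold change was 0.13 (SE 0.30, 95% interval -0.52 to 0.78, adjusted p = 0.784 by edgeR). Without replicate 3 the sign turned, at -0.19 (adjusted p = 0.461 by edgeR), and the P23H DMSO mean was 299 ± 16.1 CPM (SD, n = 4). It also turned, to -0.0038, without wild type replicate 1. No rise of Hspa5 was detected with or without these libraries.

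Xbp1, the transcription factor activated by IRE1, was at 85.9 and 84.1 CPM in wild type. In P23H DMSO replicates 1 to 5 it was at 89.7, 93.3, 143, 88.9 and 86.4 CPM. All 5 values lay above both wild-type values, although 4 of them by a narrow margin. The Poisson intervals of these 4 overlapped that of wild type replicate 1 (81.5 to 90.4 CPM), and therefore their margin lay within counting error. Such a separation in the higher direction was seen in 27.1% of all genes. On the authors' normalized scale the groups overlapped, so that the separation depended on the scaling. The log2 fold change was 0.24 (95% interval -0.26 to 0.74, adjusted p = 0.469 by edgeR). It was 0.0043 without replicate 3 (adjusted p = 0.988 by edgeR), so the size of this difference rested on that library.

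Atf4, the effector of the PERK branch, was at 524 and 511 CPM in wild type. In P23H DMSO replicates 1 to 5 it was at 348, 387, 361, 440.2 and 457 CPM, below wild type in each. The groups did not overlap, as in 23.7% of all genes in the lower direction. The means were 399 ± 48.3 CPM (SD, n = 5) and 518 ± 9.28 CPM (SD, n = 2). This gave a log2 fold change of -0.38 (SE 0.15, 95% interval -0.71 to -0.04). The edgeR p was 0.0315 before adjustment and 0.0982 after it. An unadjusted p under 0.05 in the lower direction was reached by 17% of all genes. The difference kept its direction in all 25 alternative fits, at -0.44 to -0.27. It passed the adjusted threshold in 6 of them, some of which were chosen after seeing the data. Without both libraries that stand apart it was -0.41 (adjusted p = 0.0272 by edgeR), in a fit where 44.8% of all genes passed. Leaving out P23H halofantrine replicate 1 alone, which enters only through the shared spread and scaling, gave -0.44 (adjusted p = 0.0401 by edgeR), with 29.2% of genes past the threshold. In a fit of all transcripts, the Atf4 transcript with the same counts was at -0.36 (95% interval -0.75 to 0.03, adjusted p = 0.309 by edgeR). Without both libraries that stand apart that transcript was at -0.39 (adjusted p = 0.167 by edgeR), not past the threshold.

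Ddit3, the factor downstream of ATF4, was at 30.1 and 27.0 CPM in wild type. In P23H DMSO replicates 1 to 5 it was at 23.2, 27.6, 21.4, 28.9 and 31.5 CPM. Values of the groups overlapped, with 2 libraries below both wild-type values and 1 above. The log2 fold change was -0.11 (95% interval -0.49 to 0.28, adjusted p = 0.690 by edgeR). Differences of either sign within that interval remained compatible with these libraries.

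With 5 libraries against 2, an exact two-sided permutation test over the 21 splits cannot give a p below 0.0952. Atf4 and Xbp1 both reached this smallest value, with differences in mean log2 CPM of -0.39 and 0.21. Adjusted over the 12 such tests of 4 genes in 3 comparisons, this exact permutation p was 0.286. On the authors' scale the exact permutation p of Xbp1 was 0.667, while that of Atf4 remained 0.0952. The exact permutation p was 0.762 for Hspa5 and 0.667 for Ddit3.

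**Figure D2:**
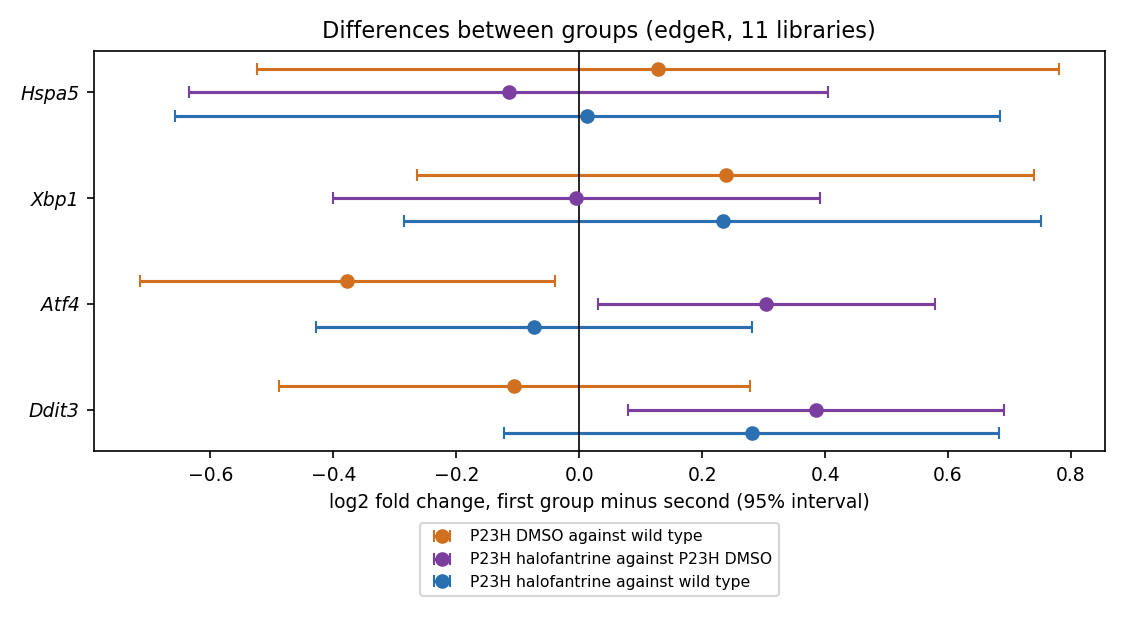
Log2 fold change of each gene (x axis, first group minus second) in the 3 comparisons, with bars for the 95% interval from the edgeR fit of all 11 libraries. The intervals of Hspa5 and Xbp1 cross 0 in every comparison, while those of Atf4 (-0.71 to -0.04 for P23H DMSO against wild type, 0.03 to 0.58 for halofantrine against DMSO) and of Ddit3 for halofantrine against DMSO (0.08 to 0.69) do not, before adjustment over genes.

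The second question was whether halofantrine altered these genes in the P23H retina. None of the 4 passed the adjusted threshold, which 1 of 12031 genes passed (0.00831%). Atf4 and Ddit3, the PERK branch, had higher mean levels with halofantrine than with DMSO, at 1.23-fold and 1.31-fold, each with an unadjusted p under 0.05. In this comparison 6.08% of all genes had an unadjusted p under 0.05 in the higher direction. With each P23H library left out in turn, the unadjusted edgeR p of Atf4 ran from 0.0107 to 0.103. That of Ddit3 ran from 0.00637 to 0.0626, so neither stayed under 0.05 throughout. Hspa5 and Xbp1 differed by less than the spread between replicates.

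Ddit3 in P23H halofantrine replicates 1 to 4 was at 37.1, 28.1, 33.5 and 40.1 CPM. Of these, 3 were above every P23H DMSO library, and replicate 2 lay inside the DMSO range of 21.4 to 31.5 CPM. The means were 34.7 ± 5.16 CPM (SD, n = 4) with halofantrine and 26.5 ± 4.16 CPM (SD, n = 5) with DMSO. The log2 fold change was 0.39 (SE 0.14, 95% interval 0.08 to 0.69, unadjusted p 0.0181, adjusted p = 0.434 by edgeR). The exact two-sided permutation test over 126 splits gave p = 0.0476, and 0.286 when adjusted over the 12 tests, where the smallest possible p was 0.0159. Without both libraries that stand apart the difference in mean log2 CPM was 0.28 (exact permutation p = 0.171, smallest possible 0.0571), against 0.39 with them.

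Atf4 in P23H halofantrine replicates 1 to 4 was at 420, 442, 554 and 553 CPM. Replicates 3 and 4 were above every DMSO library, and replicates 1 and 2 lay inside the DMSO range. The means were 492 ± 71.3 CPM (SD, n = 4) and 399 ± 48.3 CPM (SD, n = 5), and the log2 fold change was 0.30 (SE 0.12, 95% interval 0.03 to 0.58). The unadjusted p was 0.0328 and the adjusted p was 0.444 (edgeR). The exact permutation test gave p = 0.0794, or 0.286 adjusted over the 12 tests. The difference in mean log2 CPM was 0.34 when both libraries that stand apart were left out (exact permutation p = 0.114, smallest possible 0.0571). Both Atf4 and Ddit3 were higher with halofantrine in all 25 alternative fits, at log2 fold changes of 0.24 to 0.39 and 0.25 to 0.47, with adjusted p of 0.0544 to 0.788 and 0.124 to 0.788 over edgeR, limma-voom and DESeq2.

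Hspa5 in P23H halofantrine replicates 1 to 4 was at 429, 238, 339 and 303 CPM. The highest was replicate 1, which stands apart, and the lowest, replicate 2, was below all DMSO libraries. The log2 fold change against DMSO was -0.12 (95% interval -0.64 to 0.41, adjusted p = 0.892 by edgeR). It turned to 0.15 without P23H DMSO replicate 3 and to 0.010 without P23H halofantrine replicate 2, neither past the threshold.

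Xbp1 in P23H halofantrine replicates 1 to 4 was at 128, 75.3, 96.3 and 100.1 CPM. Replicate 1 was above 4 of the 5 DMSO libraries and replicate 2 was below all of them. The group means were 99.9 ± 21.6 CPM (SD, n = 4) and 100.2 ± 24.0 CPM (SD, n = 5). The log2 fold change was -0.0050 (95% interval -0.40 to 0.39, adjusted p = 0.994 by edgeR). Its sign changed in 11 of the 25 alternative fits, as its value lay near 0. The interval leaves room for a change of either sign up to these limits.

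Halofantrine-treated P23H retinas were last compared with wild type, a comparison that shares its libraries with the other two. None of the 4 genes passed the adjusted threshold, against 13.1% of all genes. The log2 fold changes were 0.013 for Hspa5, 0.23 for Xbp1, -0.07 for Atf4 and 0.28 for Ddit3, with adjusted p of 0.982, 0.512, 0.777 and 0.307 by edgeR. The value of Hspa5 kept its sign in 10 of 25 alternative fits. For Atf4, replicates 3 and 4 lay above both wild-type libraries and replicates 1 and 2 below both. For Ddit3, 3 of the 4 libraries lay above both wild-type values of 30.1 and 27.0 CPM, and the remaining one lay between them. In order of mean level, Atf4 thus stood at 518 CPM in wild type, 492 CPM with halofantrine and 399 CPM with DMSO, and Ddit3 at 34.7 CPM with halofantrine, 28.6 CPM in wild type and 26.5 CPM with DMSO. Hspa5 stood at 355 CPM with DMSO, 327 CPM with halofantrine and 324 CPM in wild type, and Xbp1 at 100.2, 99.9 and 85.0 CPM in the same order. No neighbouring pair in these orders differed past the adjusted threshold.

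**Figure D3:**
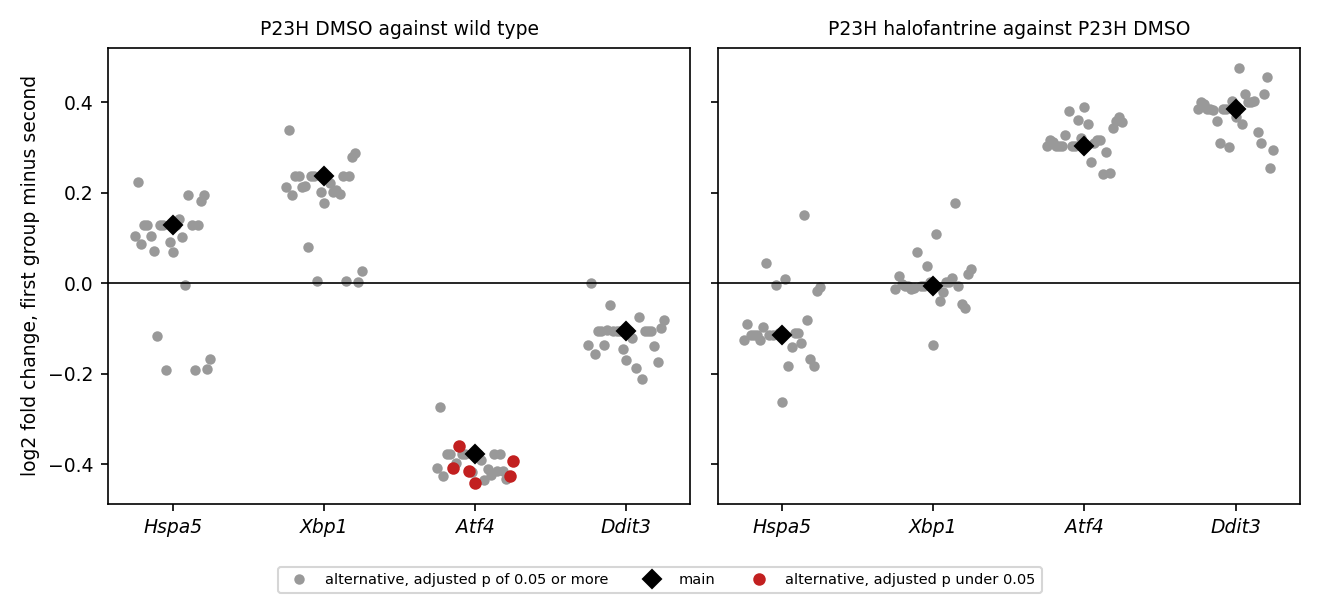
Log2 fold change of each gene (y axis) for P23H DMSO against wild type (left) and P23H halofantrine against P23H DMSO (right), with diamonds for the fit of all 11 libraries and circles for 25 alternative fits, red where the adjusted p was under 0.05. Atf4 lies below 0 on the left in every fit, with 6 red circles, and Atf4 and Ddit3 lie above 0 on the right in every fit with no red circle, while Hspa5 has points on both sides of 0 in both panels.

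Variation of the 4 genes among the 9 P23H libraries was then compared. Over 6 pairings of genes, Hspa5 correlated with Xbp1 at r = 0.971 (exact permutation p = 0.000218, adjusted 0.00131) and rho = 0.9 (exact permutation p = 0.00203, adjusted 0.0122). Both libraries that stand apart were the farthest from the median of Hspa5. Without them r was 0.883 over 7 libraries (exact permutation p = 0.0159). With the mean of each treatment removed, r was 0.979 over the 9 libraries (exact permutation within treatments, p = 0.00521, adjusted 0.0313) and 0.894 over the 7 (exact permutation p = 0.104), where the relation was no longer past the threshold. Of 12030 other genes, 6 correlated with Hspa5 at least as highly as Xbp1 over the 9 libraries (0.0499%), and 43 over the 7 (0.357%).

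Atf4 correlated with Ddit3 at r = 0.811 (exact permutation p = 0.00853, adjusted 0.0256) and rho = 0.767 (exact permutation p = 0.0214, adjusted 0.0642). It was 0.805 without the 2 libraries farthest from the median of Atf4, and 0.929 over 7 libraries without those that stand apart (exact permutation p = 0.000794). Of the other genes, 2.01% correlated with Atf4 at least as highly over the 9 libraries. These values pool both treatments, between which both genes differed in mean. With the mean of each treatment removed, r was 0.649 over the 9 libraries (exact permutation within treatments, p = 0.0858, adjusted 0.257) and 0.898 over the 7 (exact permutation p = 0.0139, adjusted 0.0834), so that the relation did not hold past the threshold within treatments. It was 0.912 among the 5 DMSO libraries and 0.358 among the 4 halofantrine libraries, given with no test. The 4 remaining correlations, of Hspa5 or Xbp1 with Atf4 or Ddit3, lay between -0.31 and -0.08, with exact permutation p of 0.430 to 0.845, all with an adjusted p of at least 0.672. Without both libraries that stand apart they were 0.29 to 0.49 over 7 libraries (exact permutation p of 0.253 to 0.555), so that their sign rested on those libraries.

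The ratios of the 4 genes to their groups differed in the libraries that stand apart. Hspa5 and Xbp1 in P23H DMSO replicate 3 were at 1.93 and 1.60 times the mean of the other DMSO libraries, while Atf4 and Ddit3 were at 0.884 and 0.768 times. In P23H halofantrine replicate 1 the ratios were 1.46 and 1.41 for Hspa5 and Xbp1, 0.812 for Atf4 and 1.09 for Ddit3. In the same libraries the share of counts outside the gene table was raised, and whether the source of those counts had a part in the Hspa5 and Xbp1 levels was not tested.

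**Figure D4:**
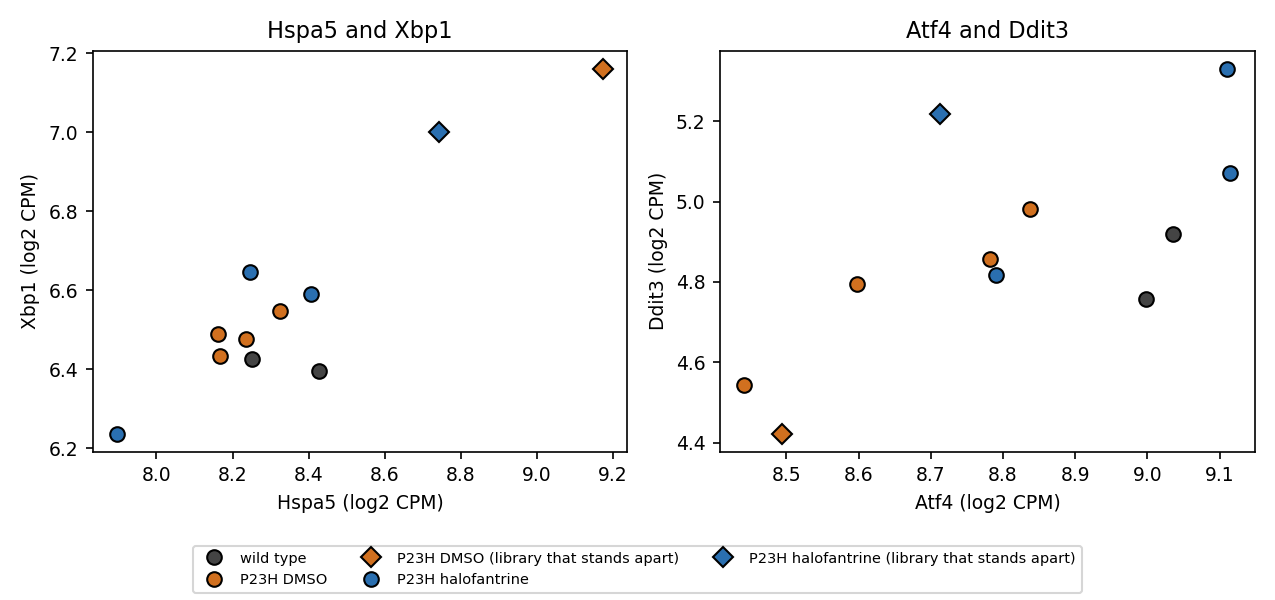
Levels of Xbp1 against Hspa5 (left) and of Ddit3 against Atf4 (right) in log2 CPM, 1 point per library, with diamonds for the 2 libraries that stand apart. On the left the diamonds lie at the upper right, on the course of the other P23H libraries (r = 0.971 over 9), and on the right the P23H libraries rise together (r = 0.811 over 9, and 0.649 with treatment means removed), with the 2 wild-type libraries to the right of all DMSO points.

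Genes of the most similar pattern over all 11 libraries were looked for by Spearman's rho of log2 CPM. The highest rho with Hspa5 was 0.973, for ENSRNOG00000015018, and 26 genes had a rho of at least 0.9. The highest with Atf4 was 0.991, for ENSRNOG00000059550, with 16 such genes. Xbp1 had 44 such genes and Ddit3 had 6. Over these 11 libraries, Xbp1 ranked 789 of 12030 genes for likeness to Hspa5 (rho 0.582), and Ddit3 ranked 610 of 12030 for likeness to Atf4 (rho 0.655). The libraries differ in group and depth, so these are descriptions.

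The genes were last traced to transcripts, since XBP1 is regulated by splicing. The counts of Hspa5, Atf4 and Ddit3 each equalled those of 1 transcript in all 11 libraries, within 0.01 counts, and no other transcript matched. Xbp1 counts equalled the sum of 1 pair of transcripts alone, ENSRNOT00000102562.2 and ENSRNOT00000014044.8. The files do not say which of them lacks the intron removed by IRE1, so neither is called the spliced form here. Reads common to both were divided between them by estimation.

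ENSRNOT00000014044.8 held 8.45% and 6.82% of Xbp1 counts in wild type. It held 12.2%, 7.55%, 9.07%, 6.67% and 8.66% in P23H DMSO replicates 1 to 5. In P23H halofantrine replicates 1 to 4 it held 13.9%, 14.5%, 6.13% and 8.64%. The groups overlapped, with the highest shares in 2 of the halofantrine libraries and the lowest in another. Means were 7.63% ± 1.15 (SD, n = 2), 8.83% ± 2.10 (SD, n = 5) and 10.8% ± 4.07 (SD, n = 4). Halofantrine and DMSO differed by 1.96 percentage points (exact two-sided permutation p = 0.397), and DMSO and wild type by 1.19 points (exact permutation p = 0.476, smallest possible 0.0952). In a fit of all transcripts the log2 fold change of ENSRNOT00000014044.8 was 0.47 for DMSO against wild type (95% interval -0.47 to 1.40, adjusted p = 0.605 by edgeR) and 0.27 for halofantrine against DMSO (95% interval -0.46 to 1.00, unadjusted p 0.432 by edgeR).

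**Figure D5:**
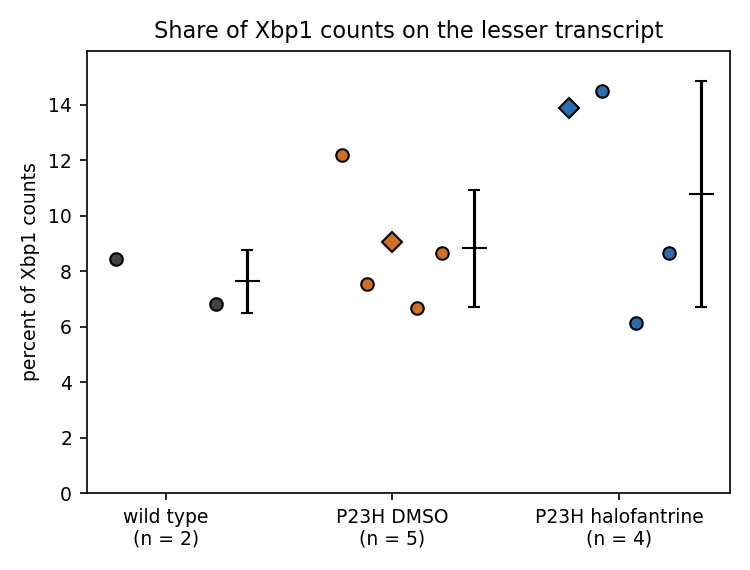
Percent of Xbp1 counts assigned to ENSRNOT00000014044.8, the lesser of its transcripts (y axis, from 0), in each library, with the group mean and SD to the right of the points. Diamonds are the 2 libraries that stand apart; the groups overlap, and the halofantrine libraries range from 6.13% to 14.5%.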

How the data were processed

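Total RNA of 11 retinas, each with an RNA integrity number of at least 9 per the labels, was made into strand-specific libraries of polyadenylated RNA. Per the study's methods, the authors aligned reads to the Ensembl rat transcriptome (release 115) with kallisto and summed transcripts with tximport. The deposited gene and transcript tables hold estimated counts, not scaled for depth. The deposited gene table had been restricted to 12037 genes by a filter not stated. A deposited normalized signal, equal to these counts divided by 1 constant per library, served as an alternative scale. The authors' table of halofantrine against DMSO (fold changes and p-values) was not used.

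Counts were rounded. Genes were kept by filterByExpr, which removed 6 and left 12031. All 11 libraries, scaled by TMM factors, entered 1 model in edgeR 4.0.16 under R 4.3.3, and groups were compared by its quasi-likelihood method, adjusted by Benjamini-Hochberg over all genes, with a threshold of 0.05. The procedure was tested on simulated data, with changes larger than those fitted for the genes examined. That test does not show how well changes of their size are detected. Log2 CPM used a prior count of 2. Single values were compared by exact permutation (scipy 1.17.1). Correlations with treatment means removed were added after seeing the data. Alternatives used DESeq2 1.42.0, limma 3.58.1, other scalings and filters, and libraries left out. No batch or date is in the labels. Animal numbers ran from 30718 to 30725 with halofantrine, 30948 to 31503 with DMSO and 32009 to 32010 in wild type. Each comparison of groups is therefore also one of animal numbers, and what these numbers stand for is not stated.

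The genes, lists and tests were chosen with earlier results of these data known. The genes to be named were the 4 members, with at most 2 other identifiers in each direction. The reference table holds 0 Ensembl identifiers, so 17 lists of response genes and cell type markers fixed by symbol were not analysed here. Promoters were matched by symbol, 4 of 4.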

Additional observations from a re-analysis of the deposited data

Results flagged for a closer look

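Levels of the 4 genes and the share of Xbp1 counts on ENSRNOT00000014044.8 were searched, in the DMSO and the halofantrine group, for a library whose distance from its nearest neighbour was large beside the range of its group. Of 10 sets of values, 2 held such a library, where chance gives 0.5. Both were P23H DMSO replicate 3. Its Hspa5 level was 577 CPM, against 286 to 321 CPM in the other P23H DMSO libraries, and its Xbp1 level was 143 CPM, against 86.4 to 93.3 CPM. The sets are not independent, since both genes were measured in the same libraries.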

How the results depend on the processing

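Each library came from a different animal and the labels name no pairing, so the groups were compared as unpaired. The labels give no replicate numbers, and the numbers used here follow the order of deposition. Atf4 was lower in P23H DMSO than in wild type, and Atf4 and Ddit3 were higher with halofantrine than with DMSO, in all 25 alternatives each. Hspa5 changed sign in each comparison, and Xbp1 in halofantrine against DMSO. Xbp1 was higher than wild type in all 25 for both treatments, at log2 fold changes down to 0.0028 with DMSO and 0.023 with halofantrine. For halofantrine against wild type, Xbp1 was 0.043 without P23H halofantrine replicate 1 (adjusted p = 0.910 by edgeR), against 0.23 with all libraries. The biological coefficient of variation was 0.266 with all libraries and 0.134 without both that stand apart, so that the spread from these libraries, beside the 2 wild-type animals, limits what could be detected. Values below are log2 fold changes unless given as genes past the threshold, in the order of P23H DMSO against wild type, halofantrine against DMSO, and halofantrine against wild type. The cause of each change was not tested beyond the libraries or genes that an alternative removes.

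For P23H DMSO against wild type, 2548 genes passed with all libraries. With no scaling factors Ddit3 was 0.0011, and the split of calls moved from 1308 higher and 1240 lower to 1927 and 795, with the median of all genes moving from 0.04 to 0.15. DESeq2 gave Atf4 at -0.41 (adjusted p = 0.0373), with 3400 genes past the threshold (28.3%). Limma-voom with sample weights gave 7207 genes (59.9%), Hspa5 at -0.12 and Atf4 at -0.36 (adjusted p = 0.00322 by limma). Without both libraries that stand apart, edgeR gave 5387 genes (44.8%), Hspa5 at -0.19 and Atf4 at -0.41. Limma-voom then gave 5170 genes (43%), -0.19 and -0.43, and DESeq2 gave 5600 genes (46.6%), -0.17 and -0.39, both chosen after seeing the data.

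For halofantrine against DMSO, 1 gene passed with all libraries. DESeq2 gave 34 genes. Xbp1 was 0.017 with no scaling factors and 0.0032 with only the groups compared, where 0 genes passed by edgeR and 981 had an unadjusted p under 0.05. Limma-voom with sample weights gave 742 genes, Hspa5 at 0.045 and Xbp1 at 0.070. Without both libraries that stand apart, edgeR gave 2 genes and Xbp1 at 0.037, limma-voom 2 genes and 0.020, and DESeq2 409 genes and 0.032.

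For halofantrine against wild type, 1580 genes passed with all libraries. Hspa5 was -0.022 with RLE factors, -0.026 with the authors' library sizes and -0.037 with only the groups compared. Atf4 was 0.044 with no scaling factors. DESeq2 gave 2491 genes and Hspa5 at -0.022, limma-voom 1024 genes and -0.025, and limma-voom with sample weights 6622 genes, Hspa5 at -0.072 and Atf4 at 0.021. Without both libraries that stand apart, edgeR gave 5472 genes and Hspa5 at -0.19, limma-voom 5100 genes and -0.21, and DESeq2 5786 genes and -0.18.

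With each library left out in turn, the genes past the threshold numbered 519 to 3646, 0 to 2 and 211 to 3588. Hspa5 ranged from -0.19 to 0.19, from -0.26 to 0.15 and from -0.19 to 0.14. Xbp1 ranged from -0.14 to 0.18 for halofantrine against DMSO, and Atf4 from -0.44 to -0.38 for P23H DMSO against wild type, past the threshold in 1 of 11 (without P23H halofantrine replicate 1). Without wild type replicate 1 or 2 the counts were 611 and 519 for P23H DMSO, and 232 and 211 for halofantrine, against wild type; the latter was 890 and 892 without halofantrine replicates 3 and 4, 2787 without replicate 1 and 3588 without P23H DMSO replicate 3. For halofantrine against wild type with no scaling factors, the calls went from 668 higher and 912 lower to 1198 and 536, with the median of all genes at 0.17 in place of 0.05.

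In the exact permutation tests, with both alternatives chosen after seeing the data, leaving out both libraries that stand apart gave differences in mean log2 CPM of -0.12 for Hspa5 in P23H DMSO against wild type, and of 0.0051 for Xbp1 and 0.28 for Ddit3 in halofantrine against DMSO, where 35 splits cannot reach 0.05. On the authors' normalized scale Xbp1 was 0.0044 for halofantrine against DMSO, and the wild-type levels of Xbp1 and Atf4 moved to 87.8 and 534.9.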
